A study of Glycyrrhiza uralensis with 48 samples.

Results

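The subject is 60 genes of licorice (Glycyrrhiza uralensis) seedlings whose RNA in the aerial part was higher under drought alone and under salt alone than in the control, but not under salt and drought together. They were selected on measured values of the same libraries, out of 38463 genes in the deposited expression table. For each gene, the mean log2(FPKM + 1) of the 3 control libraries was subtracted from that of each stress, in aerial parts without silicate. FPKM is the number of fragments scaled by transcript length and library depth. A gene was eligible when its control mean was at least 2 FPKM, which 18178 genes met. It also had to be above the control under drought and under salt and at most 0.3 above it under salt-drought, which left 3386 genes. The 60 with the largest gap between the smaller single-stress difference and the salt-drought difference were taken.

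The groups used are aerial and underground parts of seedlings aged 45 days, grown from 75 seeds a pot in 1900 g of sterilised desert sand. The conditions are a distilled-water control (CK), drought at 35 to 45% of saturation moisture (D), 75 mM NaCl (S), and both stresses at once (SD). Each condition was given with 2 mM silicon as K2SiO3 (+Si) or without it, so 2 parts, 4 conditions and 2 silicate levels make 16 groups of 3 libraries. Potassium comes with the silicon in every +Si group, and CK has neither. Separate pots for the 3 libraries of a group are not stated in the labels. A p-value therefore reflects only the spread among these libraries, which may be technical.

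Drought and salinity both lower the water potential around the root, and plants answer both partly through abscisic acid, with closed stomata, compatible solutes and protective proteins. Salt adds sodium and chloride that must be kept out of the shoot or stored in vacuoles. A combined stress is not the sum of its components in many plants, and silicon taken up by the root is known to ease several such stresses. The deposited files pair no gene identifier with a name or product, so no role is given to any of the 60 genes, and no gene sequence was in the files used here.

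The part labels could be checked with genes that the table itself sets apart. There are 27 underground markers, which have at least 100 FPKM in each of the 24 underground libraries and an aerial CK+Si mean below 1% of the underground one, and 6 of them are among the 60 genes. The other 21 markers had a median of 0.0540 to 2.83% of their underground level in 22 of the 24 aerial libraries. D replicate 3, at 11.4%, and SD+Si replicate 2, at 14.7%, stand apart. The 23 aerial markers, chosen the same way, include none of the 60 genes. The SD+Si call counts, the median against CK+Si, some calls of named genes and the membership are also given without such a library. Other differences and counts from the aerial D and SD+Si groups were made with them only. Depth was not given, and it could not be recovered from the FPKM steps. In bulk tissue, fewer cells of a type and less RNA per cell cannot be told apart.

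In the 12 aerial libraries that chose them, the 60 genes form a rise and a loss whose size is fixed by the choice and is given as description only. Their median level was 4.88, 6.28 and 6.48 FPKM in the CK libraries. It was 17.5, 13.9 and 22.3 FPKM in D, and 12.7, 12.9 and 7.73 FPKM in S. In SD it was 0.917, 1.99 and 2.48 FPKM. The SD medians lie below those of all 9 other libraries, and the S medians come closest to CK in replicate 3. The median log2 difference from CK was 1.20 for D, with a range of 0.18 to 4.56, and 0.80 for S, with a range of 0.02 to 2.49. For SD it was -1.33, ranging from -3.02 to 0.21.

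The loss in SD went below the control, and the rise in salt was the smaller one. In 47 of the 60 genes the SD mean was at least 1 log2 unit below CK, and in 3 it was above CK. D exceeded S in 48 genes, and the S difference was under 0.3 in 10. All D and S libraries lay above all SD libraries in 37 genes, and all D libraries lay above all CK libraries in 29. For S against CK that held in 3 genes, Glyur000078s00005378, Glyur000717s00025331 and Glyur000606s00017345. None of the 60 genes had its D and S libraries all above CK and its SD libraries all below CK. A gene just outside the selection did. These libraries chose the genes and no such count was made over all genes, so the counts do not set the 60 apart. The genes were mostly low in the control: the median of the CK means was 5.51 FPKM, 40 were under 10 FPKM and 4 were at 50 FPKM or more. In the SD libraries 33, 19 and 19 of the genes were under 1 FPKM, and 7, 4 and 2 were listed at 0.

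**Figure D1:**
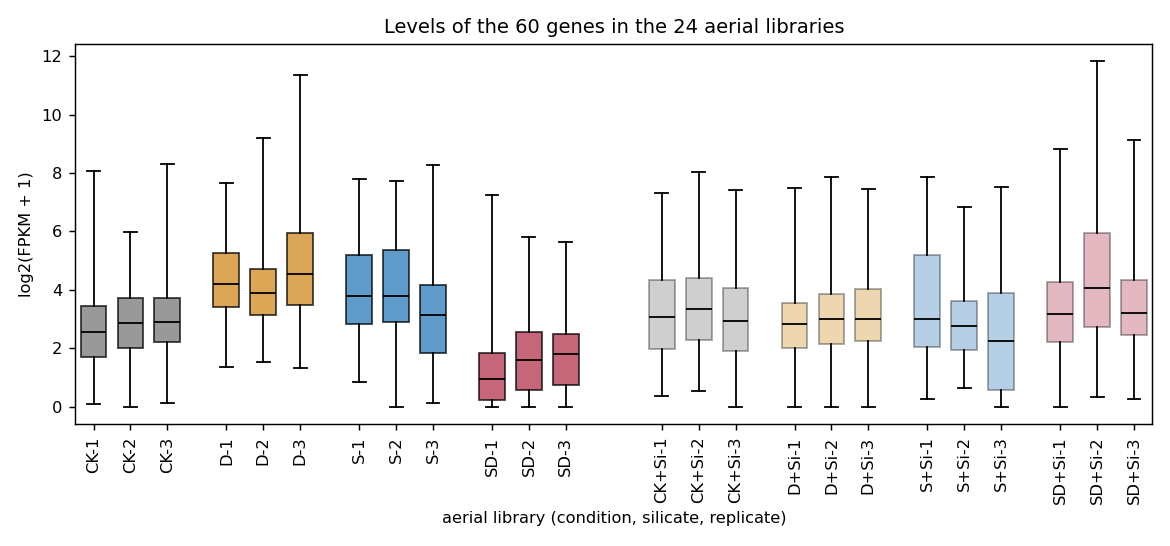
Boxes show the middle range and median, and whiskers the lowest and highest, of log2(FPKM + 1) over the 60 genes in each of the 24 aerial libraries, with silicate-fed libraries in pale colours. The SD boxes are the lowest, with medians of 0.917 to 2.48 FPKM, while the SD+Si medians reach 8.04 to 15.8 FPKM.

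The 4 genes with the largest values of the selection measure show what it picks up. Glyur000209s00013480, a single-exon gene on Scaffold00209 from 203836 to 204507 on the plus strand, had 9.44, 4.34 and 32.1 FPKM in CK. It had 52.8, 113 and 198 FPKM in D, 24.8, 68.2 and 6.22 in S, and 0.0947, 0.0882 and 4.32 in SD. Its D and SD libraries are separate from CK, while its S libraries overlap CK. Glyur000321s00019413, a single-exon gene on Scaffold00321 from 179689 to 180174 on the plus strand, had 9.38, 5.19 and 11.9 FPKM in CK and 27.6, 29.2 and 60.6 FPKM in D. Its S values were 5.46, 44.2 and 2.87 FPKM and its SD values 0, 0.320 and 0.176 FPKM. Here 1 S library lies far above the other 2, which do not exceed CK.

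Glyur005689s00046703, a 2-exon gene on Scaffold05689 from 6351 to 8049 on the minus strand, was far more abundant and tighter. Its values were 154, 56.8 and 93.4 FPKM in CK, 158, 160.1 and 153 in D, 95.6, 93.3 and 134 in S, and 16.9, 10.7 and 8.85 in SD. All 3 SD libraries lie below every other aerial library without silicate, whereas S overlaps CK and D lies close to the highest CK library. Glyur001280s00031951, a single-exon gene on Scaffold01280 from 66581 to 66961 on the minus strand, had 4.04, 0.970 and 18.8 FPKM in CK and 19.1, 12.7 and 405 FPKM in D. Its S values were 9.35, 102 and 2.60 FPKM, and its SD values 0.690, 0.505 and 2.57 FPKM. Its highest D value is that of replicate 3, the library with the raised underground markers.

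The 2 genes with the highest control level had wide spreads. Glyur000086s00011550, on Scaffold00086 from 342335 to 344068 on the minus strand with 3 exons, had 185 ± 108 FPKM in CK, 348 ± 210.3 in D, 245 ± 56.6 in S and 85.2 ± 58.5 in SD (mean ± SD, n = 3). Glyur002870s00040965, on Scaffold02870 from 13799 to 18371 on the minus strand with 5 exons, had 38.4, 0.540 and 319 FPKM in the CK libraries. That spread covers its values in all 3 stresses. At the edge of the selection, Glyur004568s00045021 was the last gene taken, with log2 differences of 0.70 for D, 0.02 for S and -1.50 for SD. Glyur001041s00027454 was the first left out, with 1.38, 1.19 and -0.33.

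The membership depends on single libraries. Of the 60 genes, 38 were chosen again without S replicate 1 and 40 without S replicate 2. Leaving out any other of the 12 libraries kept 46 to 56, and 54 without D replicate 3. A pseudocount of 0.1 kept 49 and median-ratio scaling kept 56.

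Most of the genes are underground genes that are scarce in the aerial part. In the CK+Si groups, which the selection did not use, 37 of the 60 were higher underground, against 34.9% of 26335 genes tested, and 13 were higher in the aerial part, against 25.8% (limma, adjusted p under 0.05). The other 10 were not called. These sets describe CK+Si, and CK without silicate was not used to assign them. The median log2 difference, underground minus aerial, was 5.04 in the 37 genes and -3.24 in the 13. Glyur002450s00037526, a single-exon gene on Scaffold02450 from 20514 to 20933 on the plus strand, had 1.87, 3.92 and 3.30 FPKM in aerial and 680.5, 1272 and 461 FPKM in underground CK+Si. No libraries of the 2 parts overlap, and the log2 difference was 7.55 (SE 0.67, limma adjusted p = 5.47e-12). Glyur000087s00008537, on Scaffold00087 from 37219 to 38605 on the minus strand with 3 exons, stood at 3.13, 0.705 and 2.18 FPKM in aerial and 96.2, 70.0 and 113 FPKM in underground CK+Si.

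Among the 13 aerial genes, Glyur005689s00046703 had 161, 261 and 134 FPKM in aerial and 3.03, 1.29 and 2.39 FPKM in underground CK+Si, a log2 difference of -5.83 (SE 0.37, limma adjusted p = 1.22e-15). Glyur000041s00007112, a 5-exon gene on Scaffold00041 from 264818 to 267858 on the plus strand, had 25.7, 30.8 and 21.9 FPKM in aerial and 2.23, 1.66 and 2.22 FPKM in underground CK+Si. Both are separated without overlap. In the libraries that chose the genes, the median log2 difference of SD from CK was -1.26 in the 37, -1.47 in the 13 and -1.30 in the 10, and that of D was 1.68, 0.77 and 0.85.

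**Figure D2:**
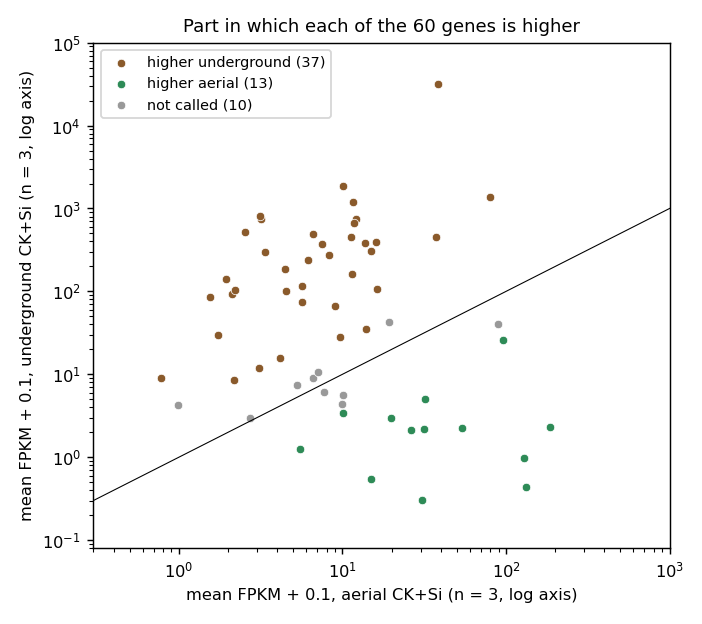
Each point is 1 of the 60 genes, by its mean FPKM in 3 aerial (x axis) and 3 underground (y axis) CK+Si libraries, with 0.1 added and both axes logarithmic. The line marks equal levels, and the 37 genes higher underground lie above it while the 13 higher in the aerial part lie below it.

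The level of the 37 genes moved with the underground markers in some aerial libraries and not in others. In CK, D, S and SD the 37 genes stood at 1.69 to 3.24%, 5.39 to 18.6%, 2.47 to 10.7% and 0.305 to 1.29% of their own underground level, as medians per library. The 21 markers outside the 60 genes stood at 0.353 to 0.497%, 0.598 to 11.4%, 0.166 to 0.455% and 0.0672 to 0.127%. Both were lowest in SD, where 5, 2 and 2 of the 21 markers were listed at 0, against at most 1 in any CK library. Both were highest in D replicate 3, which was the top D library for 30 of the 37 genes. In S the 2 sets differ by these medians. S replicate 2 was the top S library for 20 of the 37 genes, and its markers stood at 0.455%, inside the CK range. Their summed level there was 200 FPKM, above the 96.4, 152 and 117 FPKM in CK. In S replicate 1 the markers, at 0.166%, were below CK and the 37 genes, at 3.90%, above it. In D+Si the markers stood at 0.722, 0.312 and 0.341%, and the 37 genes at 2.09, 3.61 and 4.18%. The summed level of the 21 markers ran from 23.5 to 7503 FPKM over the 24 aerial libraries. The part of underground RNA in the levels of the 37 genes was not tested.

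**Figure D3:**
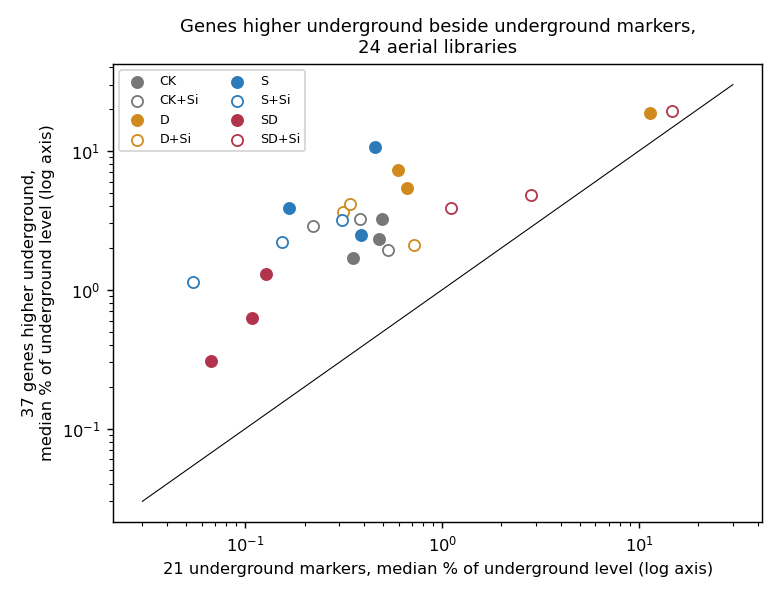
Each point is 1 of the 24 aerial libraries. The x axis gives the median percent of the underground level (underground CK+Si mean) for 21 underground markers outside the 60 genes, and the y axis the same for the 37 genes higher underground, both logarithmic, with a line of equality. The 3 SD libraries sit at 0.305 to 1.29% on the y axis, beside 1 S+Si library and below all the rest, and D replicate 3 and SD+Si replicate 2 sit highest.

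The 13 aerial genes were highest in other libraries. Their median level per library was 12.9 to 16.7 FPKM in CK, 20.1 to 31.7 in D, 18.2 to 60.05 in S and 3.94 to 5.79 in SD. Their top library was D replicate 1 in 7 genes and S replicate 1 in 9. The SD range lies below the other 3 without overlap, in libraries that chose the genes. The 10 genes called in neither direction had 4.68 to 6.03 FPKM in CK, 7.42 to 10.9 in D, 6.87 to 8.65 in S and 0.426 to 1.32 in SD.

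Silicate-fed aerial parts offer 12 further libraries in which to look for the same shape, and as a set the 60 genes did not show it. Of the 55 genes at 2 FPKM or more in CK+Si, 3 met the conditions of the selection there, or 5.45%, against 23.8% of 17918 genes at that level. Over all 60 genes, the smaller of the D+Si and S+Si values minus the SD+Si value had a median of -1.11 log2, ranging from -8.79 to 3.18, and it was above 0 in 15. Among the 17918 genes it was above 0 in 6632, with a median of -0.09. The members' median level was 7.37, 9.08 and 6.63 FPKM in CK+Si and 6.09, 6.996 and 7.03 in D+Si. It was 6.97, 5.79 and 3.77 FPKM in S+Si and 8.04, 15.8 and 8.28 in SD+Si. The SD+Si libraries are thus not the lowest, and their lowest median is above every D+Si and S+Si median.

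With silicate, the 2 single stresses gave no calls among the 60 genes, and drought gave few among all genes. In D+Si against CK+Si none of the 60 was called, against 0.137% of all genes tested, and 6 had an unadjusted p under 0.05, all lower, beside 1752 of 23389 genes. In S+Si against CK+Si none was called, against 4.36%, and 5 had an unadjusted p under 0.05, of which 1 was higher, beside 4121 of 23389 genes. The rise in both single stresses that chose the genes was therefore called for none of them with silicate. In the libraries that chose them, the same fit called 3 of the 60 in D and 0 in S against CK, beside 778 and 1628 of 23389 genes. Those libraries chose the genes, so the 2 counts are description only. With so few calls there too, the lack of calls with silicate does not set the 2 silicate levels apart.

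**Figure D4:**
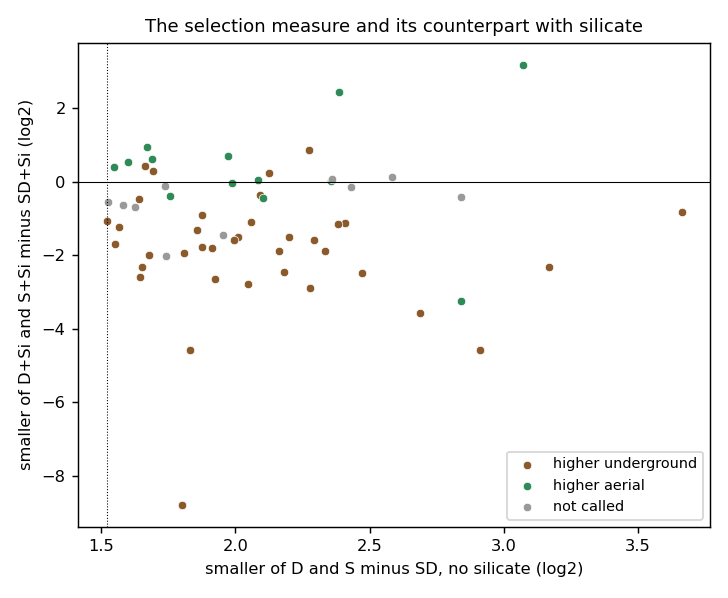
Each point is 1 of the 60 genes. The x axis is the log2 measure that chose it, from libraries without silicate (dotted line, lowest value taken), and the y axis the same measure from the 12 silicate-fed aerial libraries. Points lie above 0 in 9 of the 13 genes higher in the aerial part, 4 of the 37 higher underground and 2 of the 10 not called.

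Salt-drought with silicate split the genes by part. Against CK+Si, 10 were called, 5 higher and 5 lower, against 12% of all genes. The 5 that rose belong to the 37 underground genes and the 5 that fell to the 13 aerial genes. The median log2 difference was 1.18 in the 37, positive in 30, and -1.50 in the 13, positive in none. CK+Si also served to assign the part, which the 2 other comparisons do not involve. Against D+Si, 7 were called, 5 higher and 2 lower, against 6.83% of genes, and against S+Si 6 were called, 4 higher and 2 lower, against 3.04%. All that rose were again of the 37 and all that fell of the 13. Against D+Si the median was 1.12 in the 37, positive in 30, and -0.39 in the 13, positive in 4. Against S+Si it was 1.49 in the 37, positive in 29, and -1.58 in the 13, positive in 1. These 3 comparisons share the SD+Si libraries.

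The rises rest largely on 1 library. Without SD+Si replicate 2 the counts were 4, 2 and 2, with 1, 0 and 0 rising, and 1800, 885 and 38 of 23228 genes were called. The median over the 60 genes against CK+Si then went from 0.19 to -0.01. Without it and D replicate 3, which enters the shared spread, 5, 3 and 4 of the 60 were called, with 2, 1 and 2 rising, beside 1825, 893 and 72 of 23037 genes. Without S+Si replicate 3, SD+Si against S+Si called 2, both lower. Without any 1 CK+Si library, 6 were called against CK+Si, and 3 or 4 against D+Si without D+Si replicate 2, D+Si replicate 1 or SD+Si replicate 3. The 21 markers stood at 1.11, 14.7 and 2.83% of their underground level in SD+Si, against 0.221 to 0.533% in CK+Si. The 37 genes stood at 3.91, 19.4 and 4.79% against 1.93 to 3.23%, so all 3 SD+Si libraries lie above all CK+Si libraries in both sets.

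In 2 of the 13 aerial genes the low level in SD recurred in SD+Si with calls against CK+Si, D+Si and S+Si alike. They are not the only aerial genes low in SD+Si, since 5 of the 13 were called lower against CK+Si. Glyur005689s00046703 had 18.0, 11.8 and 11.9 FPKM in SD+Si, against 161, 261 and 134 in CK+Si, 179, 134 and 176 in D+Si, and 233, 89.99 and 109 in S+Si. No SD+Si library reaches the lowest of the others, as was the case without silicate. The log2 difference was -3.61 from CK+Si (SE 0.35, limma adjusted p = 4.36e-06), -3.48 from D+Si (adjusted p = 1.68e-05) and -3.18 from S+Si (adjusted p = 0.000279). It was called under all 12 alternatives in each comparison.

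Glyur000735s00021581, a 2-exon gene on Scaffold00735 from 122291 to 123772 on the minus strand, had 31.2, 14.4 and 24.9 FPKM in CK and 7.34, 4.01 and 4.32 FPKM in SD. With silicate it had 20.6, 30.5 and 45.0 FPKM in CK+Si, 44.4, 33.2 and 56.4 in D+Si, 63.0, 16.1 and 27.0 in S+Si, and 4.99, 5.15 and 4.201 in SD+Si. Its SD+Si libraries are below all 9 others. The log2 difference was -2.45 from CK+Si (SE 0.39, limma adjusted p = 0.000414), -2.95 from D+Si (adjusted p = 0.000201) and -2.44 from S+Si (adjusted p = 0.0065). The last was lost when only the 2 groups were fitted (adjusted p = 0.0695).

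Of the genes that rose in SD+Si, Glyur002450s00037526 had 29.4, 219 and 33.4 FPKM, against 1.87, 3.92 and 3.30 in CK+Si. The groups do not overlap, and the log2 difference was 3.96 (SE 0.83, limma adjusted p = 0.00405), kept in all 12 alternatives. Against S+Si it was 4.58 (adjusted p = 0.0115), lost without SD+Si replicate 2, without S+Si replicate 3 and with only the 2 groups fitted (adjusted p up to 0.0764). Glyur000606s00017345, a 5-exon gene on Scaffold00606 from 103307 to 106855 on the plus strand that overlaps a gene on the opposite strand, had 42.5, 167 and 42.8 FPKM in SD+Si and 9.14, 17.6 and 8.13 in CK+Si. Its log2 difference of 2.51 (SE 0.68, limma adjusted p = 0.0213) was lost without SD+Si replicate 2 and without CK+Si replicate 1 or 3, with an adjusted p of up to 0.124.

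Against D+Si, Glyur000025s00003309, a 2-exon gene on Scaffold00025 from 171472 to 172684 on the minus strand, had 29.4, 122 and 32.9 FPKM in SD+Si and 5.35, 6.39 and 7.15 in D+Si. The log2 difference was 2.79 (SE 0.60, limma adjusted p = 0.00882), and the call was lost without SD+Si replicate 2 (adjusted p up to 0.0539). Glyur001944s00035546, a single-exon gene on Scaffold01944 from 113 to 943 on the minus strand that overlaps an opposite gene, was the most abundant of the 60 underground, at 28700.0, 34148 and 32326 FPKM in CK+Si. In aerial parts it had 449.8, 3657 and 567 FPKM in SD+Si, 62.0, 6.41 and 1.84 in D+Si, 2.71, 1.46 and 0.194 in S+Si, and 2625 FPKM in D replicate 3. Its 2 highest aerial libraries are the 2 that stand apart by their markers. The log2 difference from D+Si was 6.48 (SE 1.55, limma adjusted p = 0.0162) and that from S+Si was 8.79 (adjusted p = 0.0101), and without SD+Si replicate 2 neither was called. The first was also lost without D+Si replicate 2 or 3, and the second without S+Si replicate 3.

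Silicate itself can only be described in aerial parts, since each such difference contains libraries that chose the genes. SD+Si exceeded SD in 59 of the 60 genes, with a median log2 difference of 2.07, against 0.03 for all genes tested. D+Si was above D in 6, with a median of -1.25, and S+Si had a median of -0.64 relative to S. CK+Si was above CK in 41 genes, with a median of 0.33. By part, the SD+Si excess over SD had a median of 2.67 in the 37 underground genes and 0.58 in the 13 aerial genes. The genes were chosen for high D and S and low SD values, so part of these differences follows from the choice, and how large a part was not tested.

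Underground, where most of the genes are abundant, D, S and SD against CK called a share of them close to that of all genes. Lower calls outnumbered higher ones in S, SD and their silicate-fed counterparts against the matching control. In S and S+Si that order turned when 1 library was left out. All 57 genes with at least 1 FPKM in 3 underground libraries were tested, and the 3 that were not are aerial genes. D against CK called 2 genes, both higher, against 3.44% of all genes. S against CK called 10, of which 2 were higher, against 18.0%, but without S replicate 1 it called 14, of which 8 were higher. SD against CK called 16, of which 7 were higher, against 27.0%. SD against D called 12, of which 3 were higher, against 15.9%, and its median log2 difference was -0.32, positive in 15 of 57, beside 0.08 and 14401 of 24478 over all genes. SD against S called 1, lower, against 0.315%.

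With silicate the underground picture was similar in size. D+Si against CK+Si called none, against 1.03% of genes, and 5 had an unadjusted p under 0.05, beside 2369 of 24478 genes. S+Si against CK+Si called 13, of which 6 were higher, against 17.1%, but 6 higher and 4 lower without CK+Si replicate 1, and 5 and 4 without S+Si replicate 1. SD+Si against CK+Si called 14, of which 4 were higher, against 13.7%. SD+Si against D+Si called 10, of which 3 were higher, against 7.47%, with a median of -0.37, positive in 18 of 57, beside -0.03 and 11289 of 24478. SD+Si against S+Si called 1, higher, against 0.474%. Silicate alone called none of the 60 in SD, against 0.00409% of genes, and none in CK, against 0.241%, with 4 at an unadjusted p under 0.05 in each, beside 2528 and 2241 of 24478 genes.

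The conditions of the selection were met underground by 7 of 51 genes at 2 FPKM or more in CK, or 13.7%, against 16.1% of 18732 genes. With silicate they were met by 8 of 55, or 14.5%, against 24.4% of 18978. The measure itself, over all 60 genes, was above 0 in 29, with a median of -0.02, beside 26.6% and -0.15 among the 18732 genes. With silicate it was above 0 in 21, with a median of -0.11, beside 36.9% and -0.08. All genes tested had a median log2 shift of 0.11 between SD and CK underground, and with median-ratio scaling SD against CK called 19 of the 60, of which 7 were higher, and SD against D called 11, none higher. Over all genes that scaling turned 4177 higher and 2436 lower calls for SD against CK into 2970 and 3368, and 2389 and 1509 for SD against D into 1274 and 2255. Single libraries move the underground counts, of the 60 and of all genes. Over all genes, leaving out 1 library gave 2159 to 3478 calls for SD against D, beside 3898 with all libraries. It gave 2295 to 3627 for S+Si against CK+Si, beside 4191, and 2286 to 2938 for SD+Si against CK+Si, beside 3364. For SD+Si against D+Si it gave 1019 to 1640, beside 1829. Of the 60, SD against D called 5 without D replicate 1, SD replicate 1 or SD replicate 3, 6 without SD replicate 2 and 7 without D replicate 3. S+Si against CK+Si called 7 without S+Si replicate 2 and 8 without CK+Si replicate 2. SD+Si against CK+Si called 7 without CK+Si replicate 1 and 9 without SD+Si replicate 1 or 3, and against D+Si it called 5 or 6 without D+Si replicate 1 or 3 or SD+Si replicate 1 or 3. Over the 17 comparisons within a part, 34 of the 60 genes were called at least once and 26 never. The most for 1 gene was 7, for Glyur000178s00013197. No such count was made over all genes, so these numbers do not set the 60 apart.

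Some genes nevertheless moved clearly underground. Glyur000023s00004903, one of the 13 aerial genes, lies on Scaffold00023 from 238025 to 241205 on the minus strand, has 3 exons and overlaps an opposite gene. Underground it had 1.48, 0.545 and 0.256 FPKM in CK, 4.38, 3.73 and 5.13 in D, 4.92, 4.498 and 6.50 in S, and 5.75, 5.87 and 8.16 in SD. All 9 stressed libraries lie above all 3 CK libraries, including SD. The log2 differences were 1.67 for D (SE 0.33, limma adjusted p = 0.00584), 1.89 for S (adjusted p = 0.000739) and 2.15 for SD (adjusted p = 0.000128), each called under all 11 alternatives. In the aerial part without silicate its SD values, 11.4, 21.6 and 5.397 FPKM, covered the CK range of 8.61 to 18.7.

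Glyur001155s00025130, a 2-exon gene on Scaffold01155 from 21529 to 22629 on the minus strand, is one of the 37 underground genes. Its underground values were 23.5, 35.4 and 30.5 FPKM in CK, 35.9, 80.8 and 106 in D, 42.4, 52.3 and 192 in S, and 406, 124 and 283 in SD. SD lies above CK and D without overlap, the opposite order to that in the aerial part. The log2 difference of SD from CK was 3.002 (SE 0.59, limma adjusted p = 0.000978). That from D was 1.83 (adjusted p = 0.0404), and it was lost in 7 of 11 alternatives, with an adjusted p of up to 0.173.

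**Figure D5:**
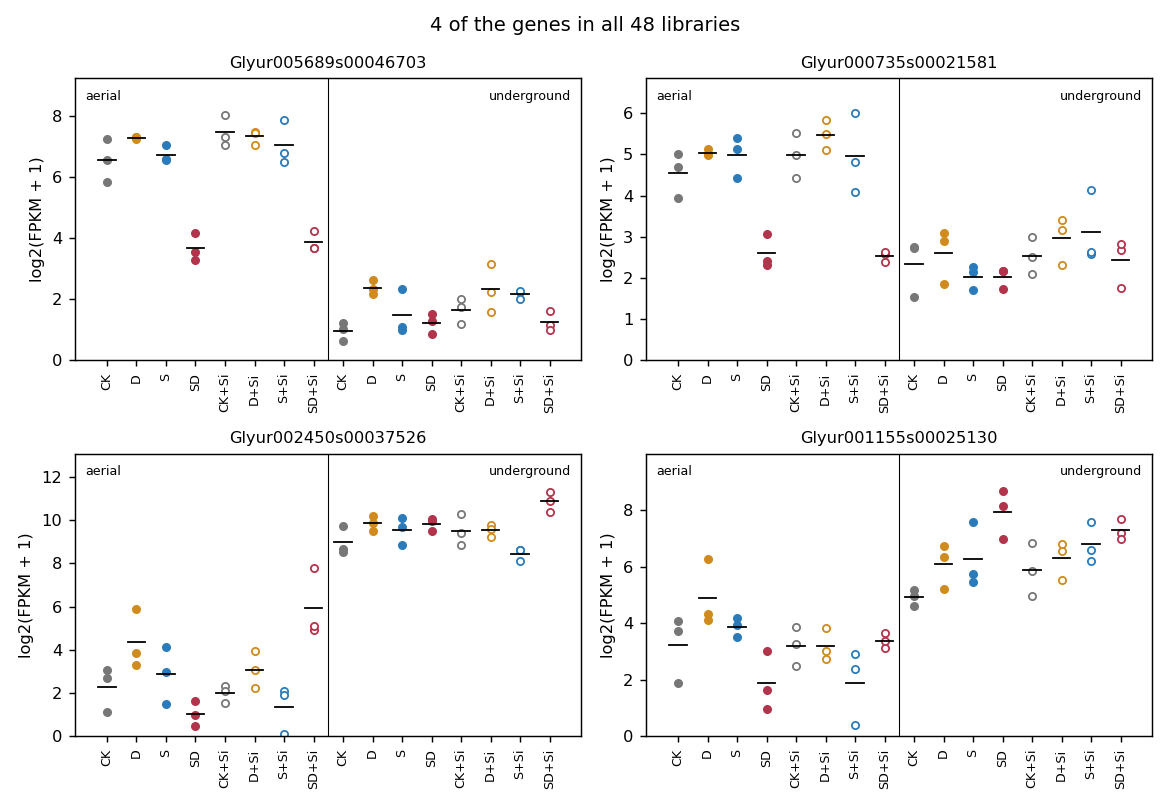
Log2(FPKM + 1) of 4 of the genes in all 48 libraries, aerial groups left and underground groups right of the line, with filled points without and open points with silicate and a bar at each mean. The 2 upper genes are low in aerial SD and SD+Si (SD+Si at 11.8 to 18.0 and 4.201 to 5.15 FPKM), and the 2 lower ones are higher underground than in the aerial part.

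Glyur000005s00001040, on Scaffold00005 from 209355 to 211287 on the minus strand with 3 exons, also rose underground. It had 118, 114 and 80.8 FPKM in CK+Si, 225, 186 and 289.5 in S+Si, and 187, 199.5 and 257 in SD+Si. Both stressed groups lie above CK+Si, by 1.15 log2 for S+Si (SE 0.19, limma adjusted p = 0.000514) and 1.04 for SD+Si (adjusted p = 0.00108). SD+Si also exceeded D+Si by 1.02 (adjusted p = 0.00378), while its SD against D difference of 0.59 (adjusted p = 0.0417) was lost in 9 of 11 alternatives. Glyur004304s00043826, on Scaffold04304 from 3181 to 4390 on the plus strand with 2 exons, had 282, 533 and 316 FPKM in SD+Si, against 117, 44.4 and 94.9 in CK+Si. The log2 difference was 2.18 (SE 0.45, limma adjusted p = 0.00267), and in the aerial part it was among the 5 genes higher in SD+Si than in CK+Si as well. Its aerial SD+Si values were 5.46, 57.5 and 8.27 FPKM, the highest in replicate 2, the library with raised underground markers.

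Other genes fell underground. Glyur000181s00013110, a single-exon gene on Scaffold00181 from 260373 to 261893 on the minus strand that overlaps an opposite gene, had 38.9, 59.9 and 74.1 FPKM in CK, 10.5, 8.88 and 2.93 in S, and 3.77, 4.29 and 7.71 in SD. All S and SD libraries lie below all CK libraries. The log2 difference was -2.89 for S (SE 0.56, limma adjusted p = 0.0016) and -3.23 for SD (adjusted p = 0.000365). With silicate, SD+Si against CK+Si gave -3.41 (adjusted p = 0.0004). Glyur000178s00013197, one of the 13 aerial genes, on Scaffold00178 from 106953 to 109780 on the minus strand with 5 exons, had 35.7, 18.9 and 22.1 FPKM in underground CK+Si, 26.1, 18.9 and 19.6 in D+Si, and 6.06, 7.32 and 5.33 in SD+Si. SD+Si is below both groups without overlap, and aerial SD+Si was also lower than aerial CK+Si, with a log2 difference of -2.66 (SE 0.79, limma adjusted p = 0.0348). In CK without silicate the parts overlap for this gene, at 16.7, 35.4 and 19.1 FPKM in aerial and 25.1, 29.1 and 21.7 FPKM in underground libraries.

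Glyur000058s00006132, on Scaffold00058 from 70504 to 77338 on the minus strand with 5 exons and an overlapping opposite gene, had 119, 121 and 113 FPKM in underground CK and 28.8, 48.9 and 38.8 in S. The difference was -1.61 log2 (SE 0.28, limma adjusted p = 0.000578). Glyur000087s00008537 had 129.97, 111 and 81.8 FPKM in underground CK, 121, 95.4 and 88.6 in D, and 50.4, 45.9 and 65.0 in SD, a log2 difference of SD from D of -0.91 (SE 0.19, limma adjusted p = 0.00347). In both genes the groups compared do not overlap. Glyur001184s00030523, on Scaffold01184 from 16281 to 19357 on the minus strand, was lower in SD+Si, at 0.695, 0.824 and 1.25 FPKM, than in D+Si, at 5.49, 3.40 and 4.08 FPKM, and its call was lost in 2 of 11 alternatives.

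Several calls underground were fragile. Glyur000086s00011550 had 2.43, 0.115 and 0 FPKM in CK, 19.2, 5.003 and 10.7 in S, and 0.433, 1.20 and 0.514 in SD. It rose in S by 2.84 log2 (SE 0.54, limma adjusted p = 0.00142). The SD against S difference of -2.74 (adjusted p = 0.04) was lost in 7 of 11 alternatives, with an adjusted p of up to 0.295. Glyur005689s00046703 rose in D by 1.42 log2 (SE 0.36, limma adjusted p = 0.0323), from 1.34, 0.544 and 1.04 FPKM to 3.53, 4.01 and 5.25, and the call was lost in 5 of 11 alternatives. Glyur002450s00037526 was higher in SD+Si than in S+Si by 2.42 log2 (SE 0.38, limma adjusted p = 0.0244), and that call was also lost in 5.

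The genes are spread over 56 scaffolds, with 3 pairs closer than 20 kb. Glyur000321s00019413 and Glyur000321s00019416 lie 11559 bases apart on the plus strand of Scaffold00321, with 2 genes between them that were not selected, and the second runs from 191734 to 192521. In the underground CK libraries they had 700.3, 589 and 953 FPKM and 579, 406 and 711 FPKM, and in SD 209, 259 and 199.6 FPKM and 149, 182 and 133 FPKM. Both fell in SD, with log2 differences of -1.72 (SE 0.33, limma adjusted p = 0.000829) and -1.84 (SE 0.30, adjusted p = 0.000236). They were also lower in S+Si than in CK+Si, with differences of -1.64 (adjusted p = 0.00248) and -1.67 (adjusted p = 0.00116). In aerial SD the second was listed at 0 in all 3 libraries.

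Glyur006124s00045727 and Glyur006124s00045728 are 1169 bases apart on opposite strands of Scaffold06124, with no gene between them, from 3677 to 4713 and from 5883 to 6517. Underground CK values were 465, 437 and 502 FPKM for the first and 187, 161 and 157 FPKM for the second. Aerial SD+Si values were 18.2, 91.6 and 21.8 FPKM and 3.60, 35.5 and 6.61 FPKM, both highest in replicate 2. Glyur000005s00001038 and Glyur000005s00001040 are 2293 bases apart on the minus strand of Scaffold00005 and differ in part, with underground CK+Si means of 10.7 and 104 FPKM and aerial ones of 6.95 and 2.10 FPKM.

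In structure the genes were short. Their exons summed to a median of 1042.5 bases, against 1492.5 for the 17700 annotated genes with an aerial CK mean of at least 2 FPKM, and they had a median of 3 exons against 5. Single-exon genes made up 13 of the 60, or 21.7%, against 13.1%, and 10 of those 13 are among the 37 underground genes. A gene on the opposite strand overlapped 12 of the 60, or 20%, against 22.2%. More than 1 annotated transcript was listed for 2 genes. Short genes have few fragments at a given FPKM, and the part of length in the selection was not tested.

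Across libraries that the selection did not use, the mean correlation over all pairs of the 60 genes was low. The mean correlation between pairs of them was 0.09 over the 12 silicate-fed aerial libraries, against 0.01 for all genes tested. Over the 24 underground libraries it was 0.09 against 0.03. These means pool the 37, the 13 and the 10 genes, and none was taken within a set. Among the aerial SD+Si libraries, replicate 2 was the highest for 33 of the 37 genes and for 1 of the 13. The points share library and depth, and the values are descriptions.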

How the data were processed

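The authors deposited 1 table of FPKM values per gene and library and a gene annotation. Per the submitters' processing notes, TopHat2 and Cufflinks were used; no version, setting, strand handling or genome build is named in the sources used here. Nanopore and Illumina libraries are both described per the labels' protocols, and which gave the FPKM values is not stated. Coordinates are 1-based, from the deposited annotation.

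The genes and lists were chosen with earlier results of these data known. Differences were tested on log2(FPKM + 1) with limma 3.58.1 in R 4.3.3 (group means, trend and robust options), in 1 fit for the 24 libraries of a part or for all 48. This scale understates changes of low genes. Tests covered each gene that reached 1 FPKM in 3 or more libraries, p-values were Benjamini-Hochberg adjusted over all of them, and the threshold was 0.05. The script was tested on simulated data. FPKM values gave best depth steps of 15.6 to 49.2 M fragments, with 44.5 to 75.5% of low values within 0.1 of a whole number, so counts were not recovered and depth is unknown.

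Genes named are the 4 with the largest selection value, those on either side of its edge, the 2 highest in CK, up to 2 risen and 2 fallen per comparison with non-overlapping groups and the smallest adjusted p, and pairs within 20 kb. Genes at either end of the same measure with silicate were named too. The 3 genes with S separated from CK, the other gene of the third pair and the gene called most often were named after their values were seen. Alternatives were a pseudocount of 0.1, no filter, median-ratio scaling, a replicate block, only the 2 groups compared, each replicate left out, and 2 aerial libraries left out together.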

Additional observations from a re-analysis of the deposited data

Results flagged for a closer look

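Among the genes named by the rule in the processing section, 4 had all 3 libraries of a stress beyond all 3 control libraries on one side without silicate and on the other side with it. Genes not named by that rule were not screened. The difference between silicate levels was not tested. The values without silicate come from the libraries that chose the genes. Glyur000025s00003309 had a log2 difference of 2.17 in aerial D and -0.84 in aerial D+Si, each against its own control. For the same gene the difference was -1.73 in aerial SD and 1.95 in aerial SD+Si. Glyur000058s00006132 had 0.88 in aerial D and -0.67 in aerial D+Si. Glyur006124s00045727 had -1.62 in aerial SD and 2.14 in aerial SD+Si, the last with its highest value in SD+Si replicate 2. Glyur001041s00027454, the first gene outside the selection, had 1.38 in aerial D and -0.98 in aerial D+Si.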

How the results depend on the processing

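The counts of the 60 genes called kept their size within 1.5 times under the alternatives, other than left-out replicates, with these exceptions. With no filter, aerial SD+Si against D+Si called 4 and underground SD+Si against D+Si called 6. With only the 2 groups fitted, aerial S+Si against CK+Si called 1, aerial SD+Si against S+Si 2, underground D against CK 4, underground SD+Si against D+Si 6, and underground SD against S and SD+Si against S+Si 0 each. Underground SD against S also called 0 with a pseudocount of 0.1 and with the replicate block. Without aerial D replicate 3 and SD+Si replicate 2, aerial SD+Si called 5, 3 and 4 against CK+Si, D+Si and S+Si. No named gene's log2 difference changed sign in a comparison that names it. The balance of calls did change: aerial SD+Si against D+Si went from 5 higher and 2 lower to 2 and 3 with only the 2 groups fitted, and to 1 and 2 without the 2 libraries. The median of the 60 genes in aerial SD+Si against CK+Si went from 0.19 to -0.01 without those libraries, and in underground SD against S from 0.04 to -0.01 with median-ratio scaling and to -0.0017 with no filter. Leaving out 1 replicate also turned the sign of that median in aerial D+Si and S+Si and underground S+Si and SD+Si against CK+Si, and in underground SD against S and SD+Si against S+Si and SD.

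Leaving out 1 replicate gave 4 to 14, 2 to 9 and 2 to 9 in those 3 comparisons. Underground it gave 1 to 2 for D, 7 to 14 for S and 13 to 17 for SD against CK, 5 to 9 for SD against D and 0 to 2 for SD against S. With silicate it gave 0 to 1, 7 to 12 and 7 to 11 against CK+Si, 5 to 9 for SD+Si against D+Si and 0 to 2 against S+Si. Between parts 46 to 49 were called. For all genes, the same step gave 1798 to 2352, 806 to 1319 and 38 to 1188 calls in aerial SD+Si against CK+Si, D+Si and S+Si. Underground it gave 506 to 699 for D, 2656 to 4162 for S and 4648 to 6265 for SD against CK. In underground SD+Si against S+Si it gave 0 to 730.

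The replicate numbers did not pair the libraries: in 0 of 18 comparisons did every same-numbered pair deviate together with r over 0.1 (range -0.39 to 0.17). With the replicate block, aerial SD+Si called 11, 7 and 6 against CK+Si, D+Si and S+Si. Depth is unknown, so no floor can be set for values listed at 0. The cause of these differences was not tested.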
